A study of Oryza sativa with 3 samples.

Results

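The homeobox genes described here carry the rice symbols HOX, ROC and WOX, and were taken from the annotation of the array by name alone. A gene was kept when its symbol or a synonym, without any Os prefix, was HOX, ROC or WOX followed by a number, and 44 genes of the gene table did so. Of these, 41 had a probe set assigned to a single gene on the array, among 17905 genes measured in this way, and the 3 without a probe set were HOX3, ROC9 and WOX5. KNOX genes were not part of the set. Each gene was read from its brightest probe set. RNA came from shoot tips of the rice cultivar Hitomebore, in 3 biological replicates of the group CK shoot, whose treatment, if any, the labels do not spell out. Seeds had been germinated in darkness and the seedlings then grown in a greenhouse until harvest. The growth protocol mentions a second genotype, which is not analysed here. The design holds no contrast between conditions, and the data answer which family members could be detected in the shoot tip and how closely the replicates agreed.

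Homeobox proteins bind DNA through a homeodomain and regulate transcription. In HD-Zip proteins, a class found in plants, a leucine zipper follows the homeodomain and joins the proteins in pairs. Families I and II act in responses to water shortage, hormones and light, family III sets the upper side of the leaf and forms vascular tissue and is cut back by the microRNA miR166, and family IV, called ROC in rice, acts mainly in the epidermis. WOX proteins lack the zipper and keep stem cells of meristems or start new organs such as leaf blades and crown roots.

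Values are RMA log2 probe set values, and each array's highest Tag control probe set, which matches no rice transcript, served as a ceiling of background at 4.98, 4.88 and 4.97 on replicates 1, 2 and 3. A gene was called above or below background when its mean distance from this ceiling passed limma at an adjusted p of 0.05 over all genes, with n = 3. Probe affinity also sets brightness, so a level shows that signal was present and does not rank RNA amounts between genes. A call below the ceiling gives no proof that the RNA was absent. In whole shoot tips, fewer cells of a type and less RNA per cell cannot be told apart.

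HD-Zip genes of all 4 families gave signal in the shoot tip, while most WOX genes lay at or below background. Of the 41 genes, 26 (63.4%) were called above the ceiling, against 80.7% of all genes, and 12 were called below it, against 15% of all genes. Of all genes with a single probe set, 78.9% were called above, and 33 of the 41 homeobox genes had a single probe set. The 63.4% also counts the homeobox genes with several probe sets, so it is not a like share to this 78.9%. The 4 HD-Zip families together had 24 of 33 genes above background and the WOX family 1 of 7. By simple position, 26 of the 41 lay above the ceiling on all 3 arrays (81.3% of all genes) and 13 on no array (15.4% of all genes). No test between families was made.

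**Figure D1:**
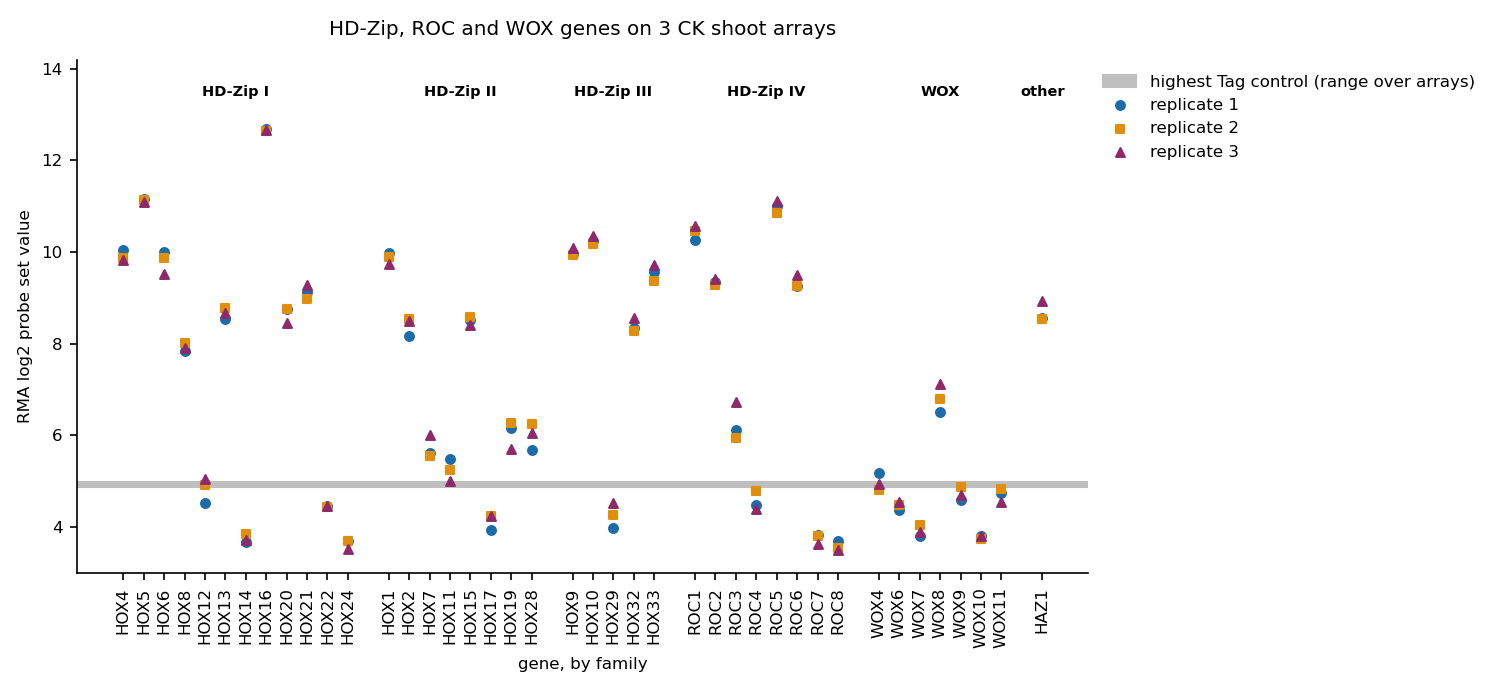
RMA log2 values of the 41 genes (vertical axis) by gene and family (horizontal axis), with a circle, square and triangle for replicates 1, 2 and 3 and a grey band for the highest Tag control over the arrays. HD-Zip genes spread from 3.58 to 12.66 in their means, and WOX genes from 3.79 to 6.80.

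**Figure D2:**
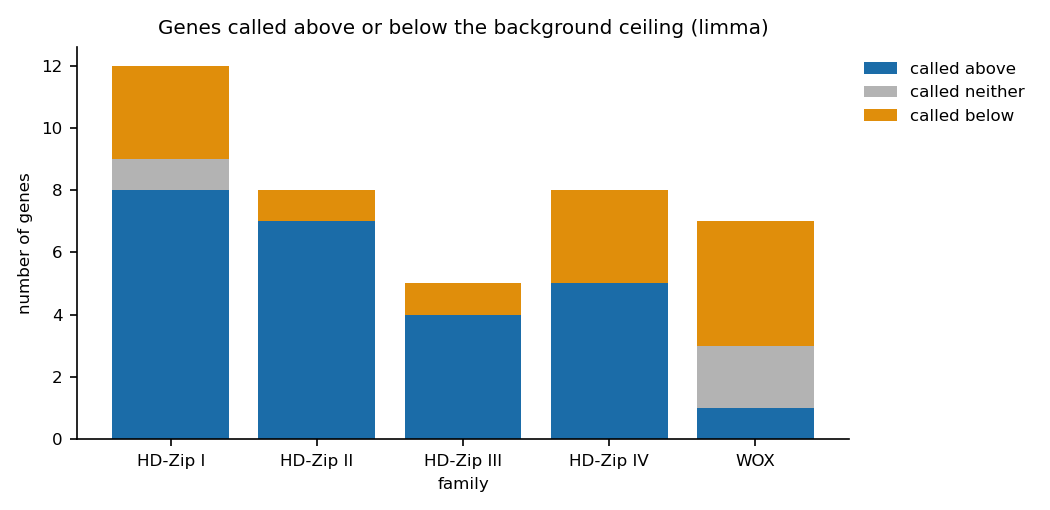
Number of genes (vertical axis) in each family (horizontal axis) called above, called below or called neither by limma at an adjusted p of 0.05. HD-Zip II had 7 of 8 genes above the ceiling (87.5%) and WOX 1 of 7 (14.3%), against 80.7% of all genes.

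Marker genes were looked up beside the tissue labels. Over all genes 80.7% were called above background, and the marker lists are short, so their counts do not test the labels. All 6 measured genes of green tissue were called above background, among them PETE (LOC4339833), plastocyanin of photosynthetic electron transport, at 14.02, 14.09 and 13.86 on replicates 1, 2 and 3. Of 3 genes of dividing cells, 2 were above, and PCNA, the DNA polymerase clamp, read 11.43, 11.25 and 11.32. The third, CYCB1-3 (LOC4326914), was called below, at 4.11, 4.18 and 4.83 (limma adjusted p = 0.0012). Of 4 KNOX genes of the shoot meristem, 1 was called above, namely OSH6 (LOC4325788) at 5.92, 5.85 and 5.76. OSH71 (LOC4337701) was above the ceiling on all 3 arrays, at 6.67, 4.93 and 6.24, but had no call (limma adjusted p = 0.054). The summed linear signal of those 4 KNOX genes, on the log2 scale, was 8.00, 6.88 and 7.88 on replicates 1, 2 and 3. Floral organ genes had 2 of 6 above, MADS4 and MADS16, and root genes 2 of 3, NRAMP5 and LSI1. NRAMP5 (LOC4342859) read 9.98, 9.87 and 10.02 and LSI1 (LOC4330713) 8.84, 9.13 and 8.84, while LSI2 was called below. Genes of endosperm and aleurone had 1 of 7 above, GLUA2 (LOC4348563) at 6.75, 7.21 and 7.07. Their summed signal was 7.79, 10.33 and 7.84, highest on replicate 2. PROLAMIN (LOC4342688) read 5.31, 8.32 and 4.73, over the ceiling on replicate 1 as well as replicate 2. RAG2 (LOC4342723) read 4.40, 9.22 and 3.94, while AMY1A and AMY3D of the same list were called below background. Whether replicate 2 or the other replicates held grain tissue, and whether this touched any homeobox value, was not tested. Across genes, which are not independent replicates, Pearson's r between arrays lay between 0.994 and 0.996.

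HD-Zip family I split into 8 genes above background (66.7%, against 80.7% of all genes), 3 below and 1 that was neither. HOX16 (LOC4330610) was the brightest, with 12.69, 12.63 and 12.67 on replicates 1, 2 and 3. Its mean of 12.66 ± 0.03 (SD, n = 3) lay 7.72 above the ceiling (standard error 0.05, limma adjusted p = 1.23e-19). HOX5 (LOC4345576) read 11.16, 11.14 and 11.08, a mean of 11.13 ± 0.04 (SD, n = 3). These are among the closest agreements between replicates in the set, with a range of 0.06 for HOX16 and 0.08 for HOX5. HOX4 (LOC4347333), known in rice to shorten the plant when overproduced, read 10.03, 9.87 and 9.83, which was 4.97 above the ceiling (standard error 0.06, limma adjusted p = 5.32e-17). HOX6, HOX8, HOX13, HOX20 and HOX21 were above background as well, with means from 7.92 to 9.80. HOX8 was read from an _s_at probe set and HOX20 and HOX21 from _x_at probe sets, which can bind transcripts of related genes.

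Family I members known from drought and abscisic acid responses did not share a call. HOX6 (LOC4347647), induced by water shortage, read 10.01, 9.87 and 9.53 and was above the ceiling on every array. HOX22 (LOC4336542), whose loss is known to raise drought tolerance, read 4.45, 4.43 and 4.45, below the ceiling on every array (distance -0.50, standard error 0.09, limma adjusted p = 0.000126). HOX24 (LOC4330155), a close relative of HOX22, read 3.69, 3.69 and 3.51, the lowest mean of the family, and was called below too (distance -1.32, limma adjusted p = 1.55e-09). With the second highest Tag control as ceiling, HOX22 was called neither (distance -0.18, adjusted p = 0.12), and HOX24 was still called below.

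HOX12 and HOX14 are members of family I known from the panicle. HOX12 (LOC4331956), which acts in panicle exsertion through the gibberellin-inactivating gene EUI1, read 4.53, 4.92 and 5.05, with the highest SD of the family at 0.27. It lay under the ceiling on replicate 1 and just over it on replicates 2 and 3, and the test gave no call (distance -0.11, standard error 0.12, limma adjusted p = 0.39). EUI1 itself read 4.82, 4.78 and 4.67, under the ceiling on all arrays, with no call either (limma adjusted p = 0.077). HOX14 (LOC4343726), known for a role in panicle development, had a mean of 3.74 ± 0.09 (SD, n = 3) and was called below (limma adjusted p = 6.64e-09).

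HD-Zip family II had 7 of 8 genes above background (87.5%), near the 80.7% of all genes. They fell in 2 bands of signal. The brighter band held HOX1, HOX2 and HOX15. HOX1 (LOC4349388), a repressor known in rice from leaf veins and shoot gravitropism, read 9.97, 9.90 and 9.75, a mean of 9.87 ± 0.11 (SD, n = 3), 4.93 above the ceiling (standard error 0.07, limma adjusted p = 9.3e-17). HOX15 (LOC4347946) read 8.52, 8.59 and 8.40, from an _s_at probe set, which can bind transcripts of related genes. HOX2 (LOC4340070) read 8.17, 8.53 and 8.50, lower on replicate 1 than on the others.

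The dimmer band of family II had means no more than 1.10 log2 above the ceiling. HOX19 (LOC4332147) read 6.17, 6.26 and 5.69, with the highest SD of the family at 0.30 (distance 1.10, standard error 0.14, limma adjusted p = 4.91e-06). HOX28 (LOC4340069), which acts with HOX1 in tiller angle, read 5.67, 6.25 and 6.05 (distance 1.05, standard error 0.14, limma adjusted p = 8.5e-06). HOX7 and HOX11 were above by 0.78 and 0.29. HOX11 (LOC4347205) read 5.49, 5.24 and 4.99, with a limma adjusted p of 0.032, and lost its call without replicate 1 (adjusted p = 0.19) and without replicate 2 (adjusted p = 0.13). HOX17 (LOC4336580) was the single member called below, at 3.94, 4.23 and 4.25. HOX7, HOX11, HOX17 and HOX19 were read from _x_at probe sets, which can bind transcripts of related genes. Without _x_at and _s_at probe sets, 3 of 5 measured family II genes were above background, and HOX7 and HOX19 had no call (distances -0.12 and -0.15, adjusted p = 0.29 and 0.20). HOX11, HOX15 and HOX17 had no other probe set and were not measured in that setting.

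HOX28 and HOX2 are direct neighbours in the gene table, with 0 genes between them, and no other members of the set are adjacent there. HOX2 lay 3.46 and HOX28 1.05 above the ceiling, a difference in array signal that probe affinity can also set.

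HD-Zip family III, the leaf polarity and vascular genes, had 4 of 5 members above background (80.0%), near the 80.7% of all genes. HOX10 (LOC4331345) read 10.25, 10.17 and 10.34, a mean of 10.25 ± 0.09 (SD, n = 3), which was 5.31 above the ceiling (standard error 0.06, limma adjusted p = 1.35e-17). HOX9 (LOC4348919), closely related to REVOLUTA of Arabidopsis, read 9.95, 9.94 and 10.08. HOX33 (LOC4352777) read 9.55, 9.37 and 9.71. All of them lay at least 3.46 above the ceiling, the distance of HOX32 (LOC4333544), a gene known to affect leaf rolling, which read 8.35, 8.29 and 8.56. The exception was HOX29 (LOC4327348), at 3.98, 4.26 and 4.52, under the ceiling on every array (distance -0.69, standard error 0.11, limma adjusted p = 4.1e-05). Its SD of 0.27 was the highest of the family.

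HD-Zip family IV had 5 of 8 members above background (62.5%, against 80.7% of all genes) and 3 below. ROC5 (LOC4330297), known from the bulliform cells whose shrinking rolls the leaf, read 11.00, 10.85 and 11.12, a mean of 10.99 ± 0.13 (SD, n = 3), 6.05 above the ceiling (standard error 0.06, limma adjusted p = 4.39e-18). ROC1 (LOC4344832), a marker of the outermost cell layer from the embryo onwards, read 10.27, 10.45 and 10.57. ROC2 (LOC4337074) read 9.33, 9.28 and 9.41, and ROC6 had a mean of 9.34 ± 0.14 (SD, n = 3). ROC3 (LOC4349488) was nearer the ceiling and the least even of all 41 genes, with 6.12, 5.93 and 6.72 and an SD of 0.41 (distance 1.31, standard error 0.15, limma adjusted p = 1.33e-06).

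ROC4, ROC7 and ROC8 were the family IV genes called below background. ROC8 (LOC4340445), which like ROC5 acts in bulliform cells, read 3.69, 3.54 and 3.50, the lowest mean of the 41 genes (distance -1.36, standard error 0.08, limma adjusted p = 5.65e-10). ROC4 (LOC4336705), known for wax synthesis in the leaf, had a mean of 4.55 ± 0.20 (SD, n = 3) and was nearer the ceiling (distance -0.40, adjusted p = 0.0034 in limma). With the second highest Tag control as ceiling ROC4 had no call (adjusted p = 0.50). ROC7 and ROC8 were read from _x_at probe sets alone.

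WOX genes had a single member of 7 above background (14.3%), against 80.7% of all genes. WOX8 (LOC4327441), which the gene table also names WOX13, belongs to the oldest branch of the family and read 6.50, 6.79 and 7.11. Its mean of 6.80 ± 0.31 (SD, n = 3) lay 1.86 above the ceiling (standard error 0.13, limma adjusted p = 1.05e-08). WOX4 (LOC4337218), needed to maintain the shoot meristem and in leaf development, read 5.18, 4.81 and 4.94, above the ceiling on replicate 1 and below it on the other arrays, and had no call (distance 0.035, standard error 0.11, limma adjusted p = 0.75). With the second highest Tag control as ceiling, WOX4 was called above (distance 0.35, adjusted p = 0.0033).

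WOX genes known from roots lay at or below the ceiling. WOX9 (LOC4324824), also named QHB and WOX5 in the gene table, is expressed in the quiescent centre of the root and read 4.59, 4.86 and 4.70, under the ceiling on all arrays and without a call (distance -0.23, limma adjusted p = 0.052). It was called below without replicate 2 (distance -0.33, limma adjusted p = 0.018) and after repeated quantile normalization (limma adjusted p = 0.048). The call was also below with the mean of all probe sets per gene (limma adjusted p = 0.046) and with eBayes neither trended nor robust (limma adjusted p = 0.044). WOX9 has 1 probe set, so its own values in both of the latter settings were those of the main fit. WOX11, which starts crown roots, had a mean of 4.70 ± 0.14 (SD, n = 3) and was called below (limma adjusted p = 0.040), a call lost without replicate 1 (adjusted p = 0.088) and without replicate 3 (adjusted p = 0.30). WOX10 (LOC4345042), known from lateral roots, read 3.81, 3.75 and 3.80, the lowest mean of the family (distance -1.16, standard error 0.08, limma adjusted p = 4.07e-09). WOX6 and WOX7 were called below too, with means of 4.47 and 3.91.

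HAZ1 (LOC4340565) entered the set through its synonym HOX1A. It joins a homeodomain to a PHD zinc finger and belongs to none of the families above. It read 8.56, 8.54 and 8.93, a mean of 8.68 ± 0.22 (SD, n = 3), 3.73 above the ceiling (standard error 0.09, limma adjusted p = 3.08e-14).

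Probe sets of the same gene often fell on different sides of the ceiling. Of the 41 genes, 8 had more than 1 probe set, with 10 further probe sets, of which 2 exceeded the ceiling on all arrays and 7 on none. HOX10 had a second probe set at 4.71, 3.94 and 4.07, under the ceiling, beside the one near 10.25. HOX5 had a second probe set at 3.68, 3.97 and 4.43, also under it. HOX16 had a second probe set above the ceiling, at 10.59, 10.73 and 10.68, and another below it, at 3.70, 3.69 and 3.51. HOX20 was the other gene with more than 1 probe set above, at 8.76, 8.75 and 8.45 for the one used and 7.43, 7.40 and 7.66 for the other. Replicate 3 was lowest on the first of these and highest on the second, so the order of arrays for HOX20 depended on the probe set. With the mean of all probe sets per gene, 25 of 41 genes were above background, HOX19 losing its call (limma adjusted p = 0.051). Over all genes, 14202 of 17905 were called above in that setting.

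**Figure D3:**
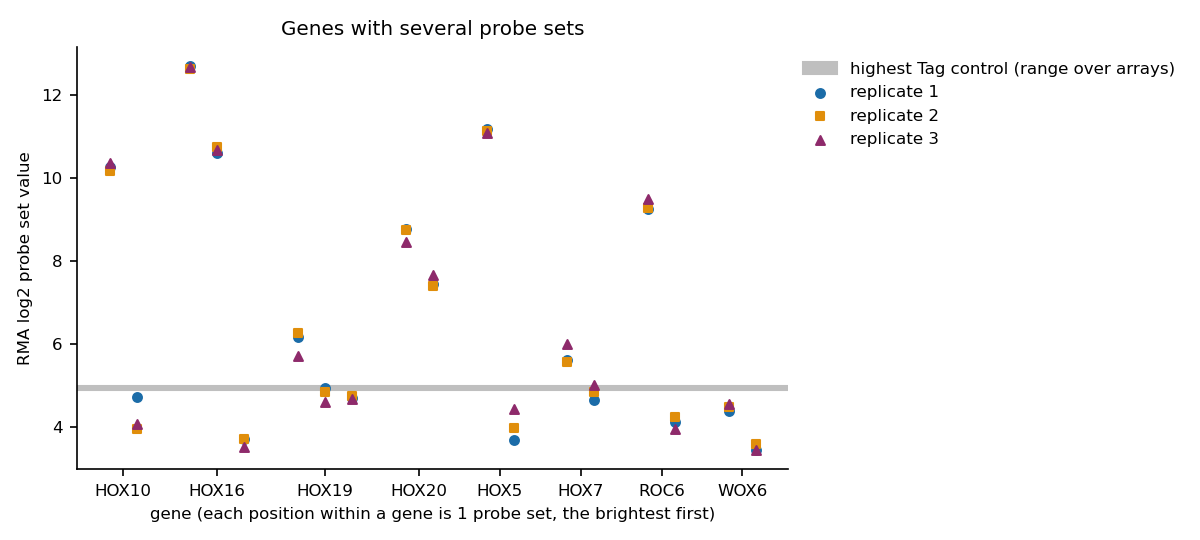
RMA log2 values (vertical axis) of every probe set of the 8 genes with several (horizontal axis), with a circle, square and triangle for replicates 1, 2 and 3 and a grey band for the highest Tag control. HOX10, HOX5 and ROC6 each had 1 probe set well above the band and 1 under it.

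The spread between replicates was set against that of all genes. No gene of the 41 passed limma's variance F test over all genes (0.162% of all genes did), and 0 of 41 had an unadjusted p under 0.05 (3.86% of all genes). A difference of over 1 log2 between the highest and lowest array was found in 0 of 41 genes, against 0.877% of all genes. Counts of 0 in 41 genes are near these shares and are not a result about the homeobox genes, and in 4 other settings 1 of the 41 had an unadjusted p under 0.05. The largest ranges were 0.78 for ROC3, 0.61 for WOX8, 0.58 for HOX28, 0.56 for HOX19 and 0.54 for HOX29. The median SD was 0.14 over the 41 genes and 0.12 over all genes. Nothing in the labels gives the number of plants per sample, so these spreads are between samples, and the test has few degrees of freedom.

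Among genes above background, small differences between arrays had the same sign on replicate 3 within families III and IV. All 4 family III genes above background were highest on replicate 3 and lowest on replicate 2, and all 5 such ROC genes were highest on replicate 3, with ROC1 and ROC6 lowest on replicate 1 and the others on replicate 2. The 3 ROC genes below background, ROC4, ROC7 and ROC8, were all lowest on replicate 3, so 5 of the 8 ROC genes were highest there and 3 lowest. Over all genes above background, 52.5% were highest on replicate 3. Replicate 3 minus the mean of the other replicates had a median of 0.19 log2 in family III, 0.21 in family IV and 0.08 over all genes above background. In family I the same median was -0.04, with 1 of 8 genes highest on replicate 3, and in family II it was -0.15, with 1 of 7. HOX6 was lower on replicate 3 by 0.41 and HOX20 by 0.31, and ROC3 was higher there by 0.69. None of these genes passed the variance test, and the differences were not tested as a family.

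Other measures moved with these arrays. The KNOX genes of the meristem had their lowest summed signal on replicate 2, as given above, where OSH1 (LOC4333973) read 3.73 against 6.25 on replicate 1 and 6.47 on replicate 3. Green tissue genes had 6 of 6 highest on replicate 2, against 22.6% of all genes above background, with a summed signal of 15.55, 15.74 and 15.50 on replicates 1, 2 and 3. Genes of dividing cells summed to 11.91, 11.69 and 11.82. The 4 control probe sets for 18S, 25S and 28S ribosomal RNA had a mean of 12.05, 11.73 and 9.59, lowest on replicate 3. The 9 hybridization control probe sets, which read spiked-in bacterial and phage RNA, had a mean of 10.77, 10.50 and 10.01, also lowest there. The part of tissue make-up, RNA quality or hybridization in the family III and IV order was not tested.

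**Figure D4:**
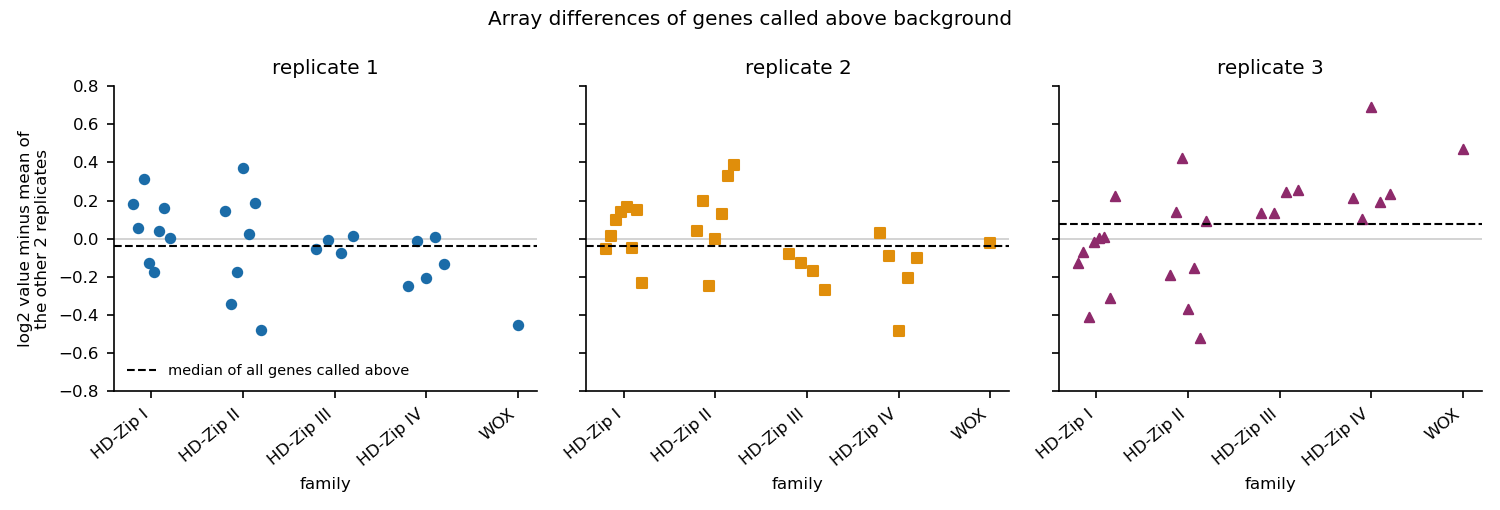
Each array's log2 value minus the mean of the other replicates (vertical axis) for genes called above background, by family (horizontal axis), with 1 panel per replicate and a dashed line for the median of all genes above background. On replicate 3 all family III and IV genes lie above 0, from 0.10 to 0.69.

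Genes tied by background knowledge to these families were looked up from lists. Of 117 listed symbols, 29 genes could be matched and measured, of which 27 were called above background, 1 below and 1 neither, against 80.7% of all genes called above. The lists are short, and nothing particular to them is read from these counts. Leaf polarity and small RNA genes, the partners of family III, had 11 of 11 above. AGO1B (LOC9270411), an Argonaute that loads microRNAs, read 11.23, 11.04 and 11.15. PNH1 (LOC9269490), the Argonaute of the meristem and vascular tissue, read 9.09, 8.91 and 9.24. ARF15 (LOC9268260), an ETTIN-type auxin response factor of the lower leaf side, read 10.47, 10.34 and 10.49. ARF14 (LOC4339313), the most uneven of the list, read 7.60, 7.35 and 7.72. All 11 genes of this list were lowest on replicate 2, as were the 4 family III genes above background, against 38.9% of all genes above background. In the lists below for WOX genes and for families I and II, 3 of 11 and 2 of 7 genes were lowest there. A link between the order of this list and that of family III was not tested.

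Partners of WOX genes had 10 of 11 above background. FON1 (LOC4342080), the receptor kinase that limits meristem size, read 8.80, 8.94 and 9.03. NAL1, a leaf width gene, read 9.96, 9.75 and 9.80. PLA3 (LOC4334380), which sets the pace of leaf formation, was the most uneven, at 5.49, 5.68 and 6.24. LAX1, a factor of axillary meristems, was the single gene called below, at 4.67, 4.65 and 4.68.

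Genes tied to families I and II had 6 of 7 above background, EUI1 being the exception. PHYA (LOC4333930), the phytochrome of far-red light, read 11.24, 10.93 and 11.12, and PYL5 (LOC4338104), an abscisic acid receptor, 10.39, 10.23 and 10.28. GA20OX2 (LOC4325003), the gibberellin oxidase of the semi-dwarf locus, was the most uneven, at 6.98, 6.43 and 6.14. Of 34 listed symbols for cuticle and epidermis, partners of the ROC genes, none could be used, so no ROC target is given.

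**Figure D5:**
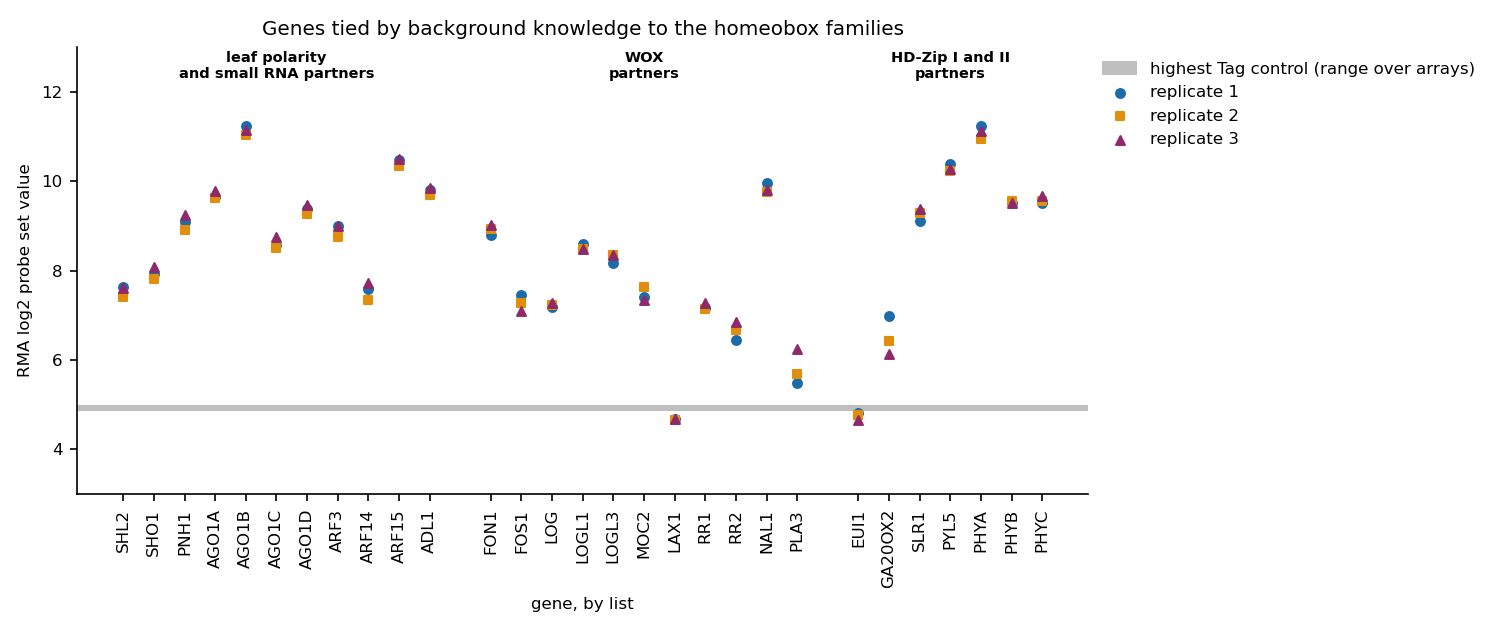
RMA log2 values (vertical axis) of the 29 partner genes by list (horizontal axis), with a circle, square and triangle for replicates 1, 2 and 3 and a grey band for the highest Tag control. LAX1 and EUI1 are the genes at or under the band.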

How the data were processed

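The authors deposited log2 values per probe set. The submitters' processing notes name Affymetrix Expression Console and RMA (robust multi-array averaging), with no version or setting. RMA removes background signal and quantile-normalizes, so differences in total RNA are removed and low values are compressed. The table held 57381 probe sets, 187 of them controls. A platform annotation paired 22436 with 1 gene, 95 with several and listed none for 34850. Names came from the gene table of assembly ASM3414082v1. No coordinates or sequences are given. Arrays have no read depth; the 3 arrays limit the precision.

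Distances from each array's highest of 17 Tag controls were fitted over all genes with limma 3.58.1 in R 4.3.3 (intercept only, trended and robust eBayes, two-sided, Benjamini-Hochberg at 0.05). Spread was tested by comparing each gene's variance with limma's prior variance (F test). This test took the prior degrees of freedom of ordinary genes, a change made because a first version with robust per-gene values failed its test on simulated data. Both steps as used were tested on simulated data. HD-Zip families were assigned by symbol from background knowledge.

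Members, lists and alternatives were chosen with earlier results of these data known. Values were printed, per family, for the brightest 3 genes, the dimmest and the most uneven, for all of HD-Zip III, for genes above the ceiling on some arrays, and for the 5 widest ranges (26 genes). From each other list the brightest 2 genes and the most uneven were eligible. Other homeobox genes given with values, such as HOX6, HOX11, HOX20 and HOX22, and PNH1, LAX1 and EUI1, were chosen after their values were seen. FC1 and WSL3 were dropped from the lists because the table uses those symbols for other genes. Symbols matching several genes were left out.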

Additional observations from a re-analysis of the deposited data

How the results depend on the processing

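No paired analysis was possible because there is a single group. Leaving out a replicate gave 25 to 26 of 41 genes above background, 11 to 13 below and 26 to 27 above the ceiling on all arrays. Over all 17905 genes, 14268 to 14453 were called above background when a replicate was left out. In a fit of only genes above the array median, 25 of 27 homeobox genes were called above, against 14395 of 14908 over all genes. This is fewer than the 26 of the main fit, and which gene lost its call there is not given. In the other settings the genes called above kept their calls where tested, except HOX11, HOX7 and HOX19 as given above. Without _x_at and _s_at probe sets, 34 genes were left and family II had 3 genes above. Of those 34 genes, 20 were called above background, against 13370 of 16977 over all genes. With the second highest Tag control as ceiling, WOX genes had 2 above, and HOX22, ROC4, WOX6 and WOX11 were no longer called below. HOX12 and WOX4, neither of them called, changed sign without replicate 1. Over the settings that left out a replicate, HOX12 lay between -0.20 and 0.061 from the ceiling and WOX4 between -0.047 and 0.088. The variance test called 0 of the 41 genes in each setting, but it called 0 of all genes too without any 1 replicate, with the mean of all probe sets and with eBayes neither trended nor robust, so those settings show nothing about stability. It called 20 genes without _x_at and _s_at probe sets, 15 after repeated quantile normalization and 38 among genes above the array median. At an unadjusted p under 0.05, 1 of the 41 passed without replicate 2, after repeated quantile normalization, without trend and robustness, and above the array median. On replicate 3, family III and IV genes above background were highest in 4 of 4 and 5 of 5 after repeated quantile normalization. When probe sets were averaged per gene, the counts on replicate 3 were 3 of 4 and 4 of 5. Of all genes above background, 41.4% were highest there in the first setting and 54.0% in the second, against 52.5% in the main fit. This check was chosen after seeing the data. Matching primary symbols alone gave 0 genes, so it was not run. The causes of these changes were not tested. HOX11, HOX12, HOX22, ROC4, WOX4, WOX6, WOX9 and WOX11 lay within 0.50 log2 of the ceiling, which limits what can be said of them.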
